A study of Triticum aestivum with 24 samples.

Results

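Sucrose synthase is represented on the Affymetrix wheat array by 3 probe sets, AFFX-Ta_Sucsyn_3_at, AFFX-Ta_Sucsyn_M_at and AFFX-Ta_Sucsyn_5_at, called here the 3', middle and 5' probe sets. They were chosen by name and are 3 of the 61290 probe sets on each array. All 3 belong to the 111 control probe sets with the AFFX prefix. Some of these sample wheat transcripts near the 3' end, in the middle and near the 5' end. The tables used here gave no gene identifier, chromosome position or sequence for them, so they are identified by probe set name.

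Sucrose synthase is a cytosolic enzyme that cleaves sucrose with UDP into UDP-glucose and fructose, in a reaction that can run in both directions. It is best known from tissues that import sugar, such as the growing grain, where its products feed starch and cell wall synthesis. Leaves make and export sucrose, and there the enzyme is known mainly from the phloem and from responses to low oxygen, cold and drought. Labelling of the RNA on arrays of this kind starts at the poly(A) tail. The copied product must therefore extend further to reach a probe set near the 5' end than one near the 3' end.

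Flag leaves of bread wheat (Triticum aestivum) grown in a greenhouse were profiled on 24 arrays, 1 RNA sample to an array and 3 arrays in each of 8 groups. The groups were TAM 112 at grain filling, dry and wet, TAM 111 at grain filling, dry and wet, TAM 112 at heading, dry and wet, and TAM 111 at heading, dry and wet. TAM 112 and TAM 111 are winter wheat cultivars, and the flag leaf is the uppermost leaf of the stem, just below the ear. The water levels in the labels are 50% and 90% of field capacity, read here as dry and wet, although no label pairs level and treatment. Whether replicates came from different plants is not stated, so the p-values rest on a spread that may be technical.

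Values were MAS5 signals on the linear scale, and the mean signal left after trimming 2% of probe sets at both ends lay between 499.965 and 499.968 on all arrays. Array medians ran from 60.4 to 77.2. All 7 green leaf genes examined, the large Rubisco subunit gene rbcl among them, lay above the median of all values on every array. Of 5 grain storage genes, ALP did so, at 5931 to 7382. The others lay above that median on 21 arrays (gli-2), 15 (abu-7), 2 (avnla) and 0 (GAG56D). Of 2 pollen genes, raftin1b lay above it on 3 arrays and raftin1a on 0. On the second principal component of the tested probe sets, 14.8% of the variance, the 12 TAM 112 arrays lay between -51.4 and -29.5 and 9 TAM 111 arrays between 45.2 and 62. The other 3 TAM 111 arrays, replicate 2 of grain filling wet, heading dry and heading wet, lay between 1.71 and 10.6, and results that change without them are given with both values. In leaf tissue, fewer cells that express a gene and less RNA per cell cannot be told apart.

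The 3' probe set was bright on every array, between 2353 and 6964 with a median of 3371, and its highest signals were those of dry leaves at grain filling. In TAM 112 at grain filling the 3 dry arrays had 6964, 6407 and 5832, against 3998, 3360 and 2920 on the wet arrays. Every dry array lay above every wet one, by more than the range of either group. In TAM 111 at grain filling the dry arrays had 5048, 4181 and 4061 and the wet ones 3825, 2792 and 3176. The dry and wet arrays of TAM 111 did not overlap either, although the lowest dry and the highest wet array lay close together. The share of all probe sets without such overlap was not counted, here or in the comparisons below.

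At heading the dry TAM 112 leaves had 3569, 3243 and 2800 and the wet ones 3201, 2968 and 3733, and the dry TAM 111 leaves had 3382, 3430 and 2804 and the wet ones 3030, 2776 and 2353. In both cultivars the dry and wet arrays at heading overlapped.

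The 3' signal rose under dry conditions at grain filling in both cultivars. The rise in TAM 112 was 1.88-fold, to 6401 ± 566 in dry leaves against 3426 ± 542 in wet leaves (SD, n = 3 each; limma, log2 change 0.91, SE 0.142, 95% interval 0.61 to 1.20, Benjamini-Hochberg adjusted p = 3.81e-05). In TAM 111 it was 1.36-fold, to 4430 ± 539 in dry leaves against 3264 ± 522 in wet leaves (log2 change 0.44, SE 0.142, limma adjusted p = 0.0315). Of all tested probe sets 13.5% rose in the TAM 112 comparison and 9.32% in the TAM 111 comparison. The TAM 112 change passed under all 12 alternative settings and without any 1 array. The TAM 111 call was lost without the 3 intermediate arrays (0.34, adjusted p = 0.183), without all 4 TAM 111 arrays numbered 2 (0.38, adjusted p = 0.219), and without any 1 of dry replicate 1 (0.35, adjusted p = 0.157), dry replicate 2 (0.48, adjusted p = 0.0525), wet replicate 2 (0.34, adjusted p = 0.162) or wet replicate 3 (0.43, adjusted p = 0.0789) of TAM 111 at grain filling.

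Neither cultivar passed at heading, where 1.66% of tested probe sets rose in TAM 112 and 1.72% in TAM 111. The 3' signal averaged 3204 ± 386 in dry and 3300 ± 392 in wet TAM 112 leaves (SD, n = 3 each; limma log2 change -0.04, 95% interval -0.34 to 0.25, adjusted p = 0.931). It averaged 3206 ± 348 in dry and 2720 ± 342 in wet TAM 111 leaves (log2 change 0.24, 95% interval -0.06 to 0.53, limma adjusted p = 0.431).

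**Figure D1:**
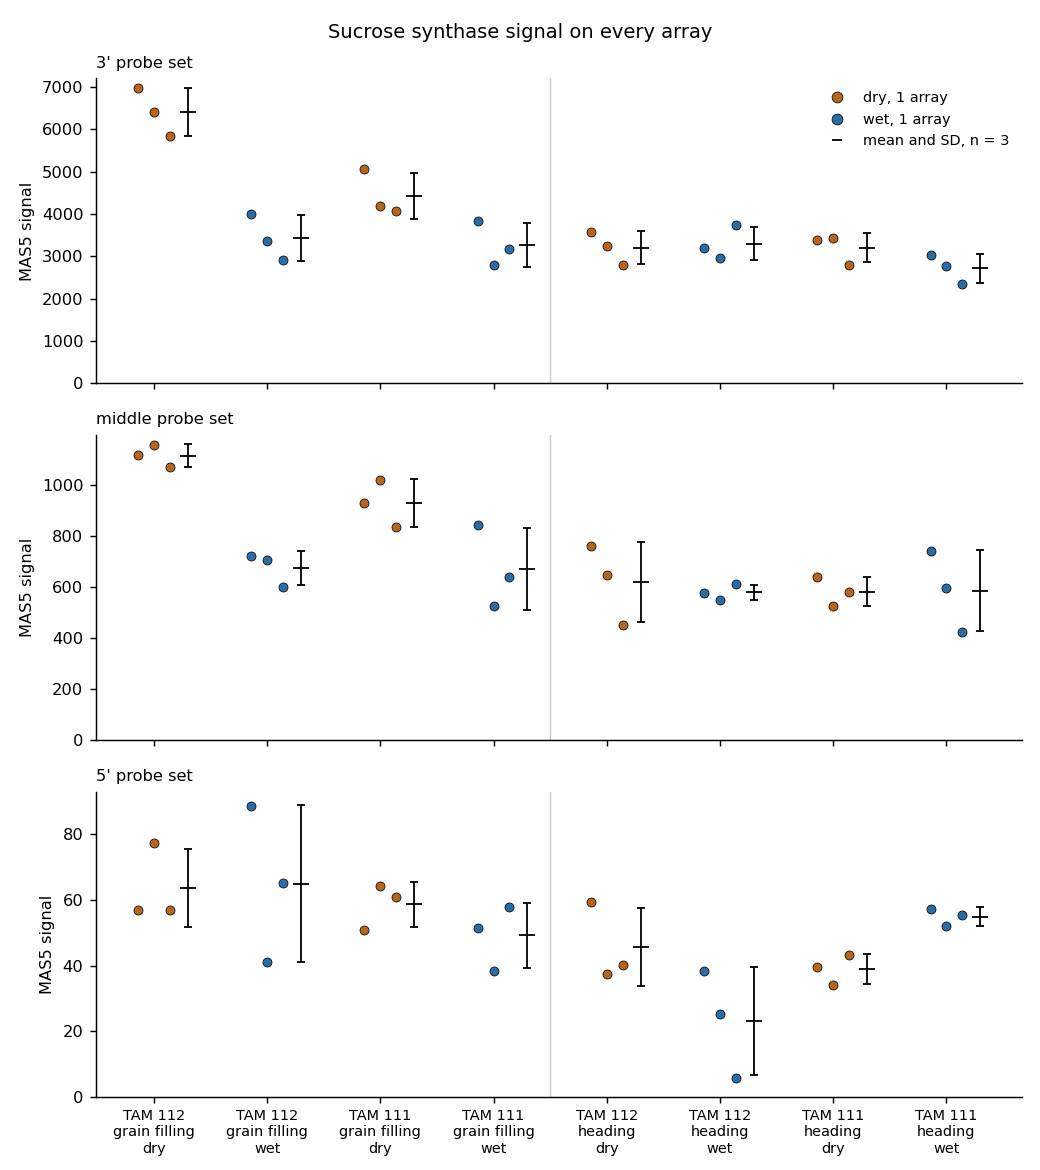
MAS5 signal of the 3', middle and 5' sucrose synthase probe sets on each of the 24 arrays (vertical axes, linear scale, one panel per probe set), by group. Points are arrays and bars the mean ± SD of 3 arrays, and in the 3' and middle panels the dry grain filling arrays of TAM 112 lie above all arrays of the other groups.

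The change in the 3' probe set under dry conditions was larger at grain filling than at heading in TAM 112, by 0.95 on the log2 scale (SE 0.201, limma adjusted p = 0.00308). In TAM 111 this difference was 0.21 (95% interval -0.21 to 0.62, limma adjusted p = 0.676), and averaged over the cultivars it was 0.58 (SE 0.142, adjusted p = 0.00589). Of all tested probe sets, 6.16% had a water effect called higher at grain filling in TAM 112, 1.76% in TAM 111 and 8.84% when averaged over the cultivars. The difference of the water effects between TAM 112 and TAM 111 did not pass, at 0.46 at grain filling (95% interval 0.05 to 0.88, limma adjusted p = 0.301) and -0.28 at heading (adjusted p = 0.984). In that test 0.0347% of probe sets (13) were called at grain filling and 0.00267% (1) at heading. The count at grain filling changed with 1 array: 2438 were called without TAM 112 grain filling dry replicate 3, and it was 1552 with array weights. The 3' difference passed in no fit without 1 array (adjusted p of 0.148 to 0.571).

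The 3' probe set also differed between the stages, in dry leaves. In dry TAM 112 leaves it rose 2.00-fold at grain filling relative to heading (limma log2 change 0.999, SE 0.142, adjusted p = 1.33e-05), and in dry TAM 111 leaves 1.38-fold (0.46, adjusted p = 0.0265). The arrays of the 2 stages did not overlap in dry leaves of either cultivar. Of all tested probe sets, 14.4% rose in dry TAM 112 leaves and 8.76% in dry TAM 111 leaves. In wet leaves the stages overlapped, with log2 changes of 0.05 in TAM 112 (95% interval -0.25 to 0.34, limma adjusted p = 0.905) and 0.26 in TAM 111 (95% interval -0.04 to 0.55, adjusted p = 0.419), while 2.06% of tested probe sets rose in TAM 112 and 1.32% in TAM 111. The TAM 111 dry call was lost without all 4 TAM 111 arrays numbered 2 (0.55, adjusted p = 0.0689), without the variance trend (adjusted p = 0.0517), and without grain filling dry replicate 1 (0.37, adjusted p = 0.147), grain filling dry replicate 2 (0.50, adjusted p = 0.0501) or heading dry replicate 3 (0.37, adjusted p = 0.129).

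Between the cultivars, the 3' probe set differed at grain filling under dry conditions, where it was 1.45-fold higher in TAM 112 than in TAM 111 and the arrays did not overlap (limma log2 change 0.53, SE 0.142, adjusted p = 0.0167). Of all tested probe sets 4.33% were higher in TAM 112 there. In the other 3 cultivar comparisons the log2 change was 0.07 in grain filling wet (95% interval -0.23 to 0.37), -0.00188 in heading dry (95% interval -0.30 to 0.29) and 0.28 in heading wet leaves (95% interval -0.02 to 0.57), with limma adjusted p between 0.476 and 0.999, and the arrays overlapped. Of all tested probe sets 0.778% were higher in TAM 112 in grain filling wet, 0.658% in heading dry and 0.621% in heading wet leaves. The grain filling dry call was lost without all 4 TAM 111 arrays numbered 2 (0.49, adjusted p = 0.0691), without TAM 112 replicate 1 (0.47, adjusted p = 0.0937) or replicate 2 (0.53, adjusted p = 0.0576), and without TAM 111 replicate 2 (0.49, adjusted p = 0.0601) or replicate 3 (0.47, adjusted p = 0.0900) of that condition.

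In order of its mean level, the 3' probe set was lowest in heading wet TAM 111 leaves and highest in grain filling dry TAM 112 leaves. From the lowest group up came heading wet TAM 111 (2720), heading dry TAM 112 (3204), heading dry TAM 111 (3206), grain filling wet TAM 111 (3264), heading wet TAM 112 (3300), grain filling wet TAM 112 (3426), grain filling dry TAM 111 (4430) and grain filling dry TAM 112 (6401). Among neighbours in this order, the highest pair and the pair below it were separated without overlap of their arrays. The step above heading wet TAM 111 was larger than the SD, but its arrays overlapped, and the 4 steps between were smaller than the SD. Stage accounted for 32.1% of the sum of squares of the log2 values over the 24 arrays, water for 24.5%, their joint term for 13.7%, cultivar for 7.93% and the spread within groups for 14.6%.

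The middle probe set had signals between 422.4 and 1158 with a median of 643.0, and lay above the 75th percentile of all values on all 24 arrays, as was the 3' probe set. In TAM 112 at grain filling the dry arrays had 1116, 1158 and 1070, against 720.0, 706.9 and 599.9 on the wet arrays. The dry arrays lay close together and well above the wet ones. In TAM 111 at grain filling the dry arrays had 929.7, 1021 and 835.3 and the wet ones 843.2, 527.4 and 637.8. Here the highest wet array, replicate 1, lay just above the lowest dry array, so the groups overlapped.

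At heading the middle probe set had 761.7, 648.2 and 451.5 on dry and 577.4, 547.8 and 610.0 on wet TAM 112 arrays. In TAM 111 it had 637.9, 527.0 and 581.9 on dry and 739.4, 595.2 and 422.4 on wet arrays. Dry and wet arrays overlapped in both cultivars at heading, and the wider group held the whole of the narrower one.

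The middle signal rose 1.64-fold under dry conditions in TAM 112 at grain filling, to 1115 ± 44.0 in dry leaves against 675.6 ± 65.9 in wet leaves (SD, n = 3 each; limma log2 change 0.72, SE 0.191, 95% interval 0.32 to 1.11, adjusted p = 0.00589). In TAM 111 at grain filling it averaged 928.7 ± 92.9 in dry and 669.4 ± 160 in wet leaves, a log2 change of 0.49 that did not pass (95% interval 0.09 to 0.88, limma adjusted p = 0.0824). That change did pass without TAM 111 wet replicate 1 (0.66, adjusted p = 0.0285). At heading the log2 change was 0.07 in TAM 112 (95% interval -0.33 to 0.47, adjusted p = 0.915) and 0.02 in TAM 111 (95% interval -0.37 to 0.42, adjusted p = 0.974). So of the 2 tested sucrose synthase probe sets, both rose under dry conditions in TAM 112 at grain filling (13.5% of all tested probe sets), 1 rose in TAM 111 at grain filling (9.32%) and 0 passed at heading (1.66% in TAM 112 and 1.72% in TAM 111).

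Between the stages, the middle probe set rose in dry leaves of both cultivars. At grain filling it was 1.82-fold higher than at heading in dry TAM 112 leaves (limma log2 change 0.86, SE 0.191, adjusted p = 0.0012) and 1.58-fold higher in dry TAM 111 leaves (0.66, adjusted p = 0.0189), without overlap of the arrays. Of all tested probe sets, 14.4% rose in dry TAM 112 leaves and 8.76% in dry TAM 111 leaves. In wet leaves the log2 change was 0.22 in TAM 112 (95% interval -0.18 to 0.61, adjusted p = 0.602) and 0.20 in TAM 111 (95% interval -0.20 to 0.60, adjusted p = 0.698). The TAM 111 dry call was lost without the 3 intermediate arrays (0.59, adjusted p = 0.0721), without all 4 numbered 2 (0.52, adjusted p = 0.198), and without grain filling dry replicate 1 (0.66, adjusted p = 0.0598), grain filling dry replicate 2 (0.59, adjusted p = 0.0843), heading dry replicate 2 (0.59, adjusted p = 0.0760) or heading dry replicate 3 (0.66, adjusted p = 0.0502).

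The middle probe set did not pass in any cultivar comparison. In grain filling dry leaves it was 1115 ± 44.0 in TAM 112 and 928.7 ± 92.9 in TAM 111 and the arrays did not overlap, but the log2 change of 0.26 had a 95% interval of -0.13 to 0.66 (limma adjusted p = 0.426). The water effect was larger at grain filling than at heading by 0.56 when averaged over the cultivars (SE 0.191, limma adjusted p = 0.0442), with 0.65 in TAM 112 (adjusted p = 0.118) and 0.46 in TAM 111 (adjusted p = 0.409). The averaged call was lost without the 3 intermediate arrays (0.43, adjusted p = 0.178), without all 4 numbered 2 (0.39, adjusted p = 0.257) and in 16 of the 24 fits that left out 1 array (0.45 to 0.57 in those 16, adjusted p of 0.0517 to 0.0903). Group means of the middle probe set ran from 578.4 ± 31.1 in heading wet TAM 112 leaves to 1115 ± 44.0 in grain filling dry TAM 112 leaves. The means of the 2 dry grain filling groups stood above those of the other 6 groups, whose neighbouring means differed by less than the larger SD.

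Averaged over the other factors, the 3' and middle probe sets both rose with dry conditions and with grain filling. The log2 change of dry against wet leaves was 0.39 for the 3' probe set (SE 0.0712, limma adjusted p = 0.000180) and 0.32 for the middle one (SE 0.0956, adjusted p = 0.0115), where 15.2% of tested probe sets rose. The middle call was lost without the 4 TAM 111 arrays numbered 2 (0.29, adjusted p = 0.0524). The change at grain filling against heading was 0.44 for the 3' (adjusted p = 3.93e-05) and 0.49 for the middle probe set (adjusted p = 0.000343), where 16.5% rose. TAM 112 was higher than TAM 111 by 0.22 for the 3' probe set (SE 0.0712, adjusted p = 0.0449, with 5.24% of probe sets higher), and the middle one did not pass (0.09, adjusted p = 0.593). This cultivar call was lost under 6 of 11 alternative settings, the 3 intermediate arrays left out among them (0.21, adjusted p = 0.0874), and in 16 of the 24 fits without 1 array (0.19 to 0.23 in those 16, adjusted p of 0.0511 to 0.0884).

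**Figure D2:**
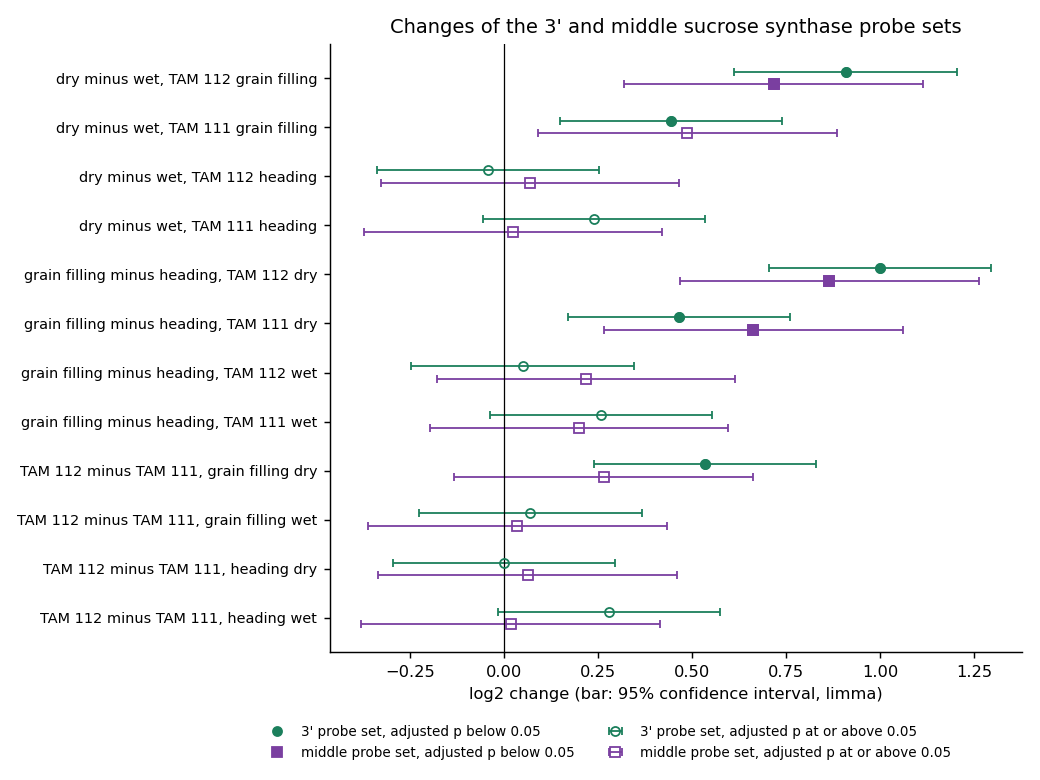
Log2 changes of the 3' and middle sucrose synthase probe sets in 12 comparisons of 2 groups (dry minus wet, grain filling minus heading, TAM 112 minus TAM 111), with 95% intervals from limma. Filled points passed an adjusted p of 0.05. The 5' probe set is not drawn, and it passed in none of these comparisons in the fit without a filter.

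The 5' probe set was dim. Its signals ran from 5.78 to 88.8 with a median of 51.8, and it exceeded the median of all values, 69.0, on 2 of 24 arrays, TAM 112 grain filling dry replicate 2 and wet replicate 1. It therefore did not pass the filter of 3 such arrays, so 2 of the 3 sucrose synthase probe sets were tested in the filtered fit, and its values come from a fit of all probe sets. At grain filling it had 56.8, 77.5 and 56.8 on dry and 88.8, 41.0 and 65.0 on wet TAM 112 arrays, and 51.0, 64.2 and 60.9 on dry and 51.6, 38.3 and 57.8 on wet TAM 111 arrays. Dry and wet arrays overlapped in both cultivars.

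At heading the 5' probe set had 59.3, 37.4 and 40.1 on dry and 38.4, 25.3 and 5.78 on wet TAM 112 arrays, and 39.5, 34.2 and 43.3 on dry and 57.4, 51.9 and 55.5 on wet TAM 111 arrays. The TAM 111 dry arrays lay below the wet ones, whereas in TAM 112 the dry and wet arrays overlapped. The log2 change under dry conditions was 0.01 in TAM 112 and 0.22 in TAM 111 at grain filling, and 0.83 in TAM 112 and -0.40 in TAM 111 at heading. The standard error was 0.362 throughout and limma adjusted p lay between 0.352 and 0.987. Averaged over the other factors, the 5' probe set was higher at grain filling than at heading by 0.49 (SE 0.181, limma adjusted p = 0.0598). This stage change was uneven, at 1.22 in wet and 0.40 in dry TAM 112 leaves and -0.14 in wet and 0.47 in dry TAM 111 leaves. TAM 112 minus TAM 111 was -1.06 in heading wet leaves. Both the 1.22 and the -1.06 involve heading wet TAM 112, the group with the array at 5.78, and neither passed. Group means of the 5' probe set ran from 23.2 ± 16.4 in heading wet TAM 112 to 64.9 ± 23.9 in grain filling wet TAM 112 leaves (SD, n = 3). They gave no neighbouring pair that differed by more than the larger SD. Spread within groups made up 38.0% of the sum of squares of this probe set.

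Whether the 3 probe sets changed in proportion was examined through their log2 ratios on each array, since the brightness of different probe sets cannot be compared directly. The 3' over middle ratio ran from 2.02 to 2.68 over the 24 arrays. It averaged 2.39 ± 0.191 in dry and 2.32 ± 0.159 in wet leaves (SD, n = 12 each; difference 0.06, two-sided exact permutation test within cultivar and stage, p = 0.383, adjusted p = 0.677 over 9 tests). It was 2.33 ± 0.161 at grain filling and 2.38 ± 0.192 at heading (difference -0.04, adjusted p = 0.705, same permutation test). It was 2.42 ± 0.144 in TAM 112 and 2.29 ± 0.186 in TAM 111 (difference 0.13, p = 0.0931, adjusted p = 0.473, same permutation test), and higher in TAM 112 in 3 of the 4 combinations of stage and water.

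The ratios to the dim 5' probe set were wider. The 3' over 5' ratio ran from 5.14 to 7.74, with 6.05 ± 0.323 in dry and 5.83 ± 0.702 in wet leaves (exact permutation, p = 0.337, adjusted p = 0.677). It was 5.92 ± 0.432 at grain filling and 5.96 ± 0.661 at heading (exact permutation, adjusted p = 0.974), and 6.11 ± 0.663 in TAM 112 and 5.77 ± 0.344 in TAM 111 (exact permutation, adjusted p = 0.473). The highest value, 7.74, belongs to the heading wet TAM 112 array on which the 5' signal was 5.78, below the added constant of 11.71. The middle over 5' ratio ran from 2.69 to 5.15 and differed by 0.16 between dry and wet leaves, by -0.00207 between the stages and by 0.22 between the cultivars, with adjusted p of 0.677 to 0.993 in the same exact permutation test. None of the 9 ratio tests passed, and the smallest unadjusted p was 0.0931.

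In TAM 112 at grain filling the 3' over middle ratio was 2.51 ± 0.107 in dry and 2.32 ± 0.121 in wet leaves (SD, n = 3 each), and the arrays overlapped. The 3' over 5' ratio of sucrose synthase there was 6.42 ± 0.250 in dry and 5.52 ± 0.413 in wet leaves, without overlap. In TAM 112 at heading it lay the other way, at 5.82 ± 0.205 in dry and 6.69 ± 0.925 in wet leaves. In TAM 111 it was 5.98 in dry and 5.75 in wet leaves at grain filling, and 5.99 and 5.35 at heading. Ratios were not tested within a single cultivar and stage. As measures of RNA quality in leaves at grain filling, the 3' over 5' ratios of the other 5 wheat control genes with such probe sets were examined. That of glucose-6-phosphate dehydrogenase was 2.98 ± 0.436 in dry and 3.06 ± 0.236 in wet TAM 112 leaves, and that of ubiquitin was -0.82 ± 0.166 in dry and -0.74 ± 0.112 in wet leaves. That of actin was 0.87 ± 1.55 in dry and 1.08 ± 0.438 in wet leaves, and that of EF1a was 0.32 ± 1.90 in dry and -0.26 ± 0.628 in wet leaves. In these 4 genes the dry and wet arrays overlapped. That of GAPDH was -0.95 ± 0.436 in dry and -2.29 ± 0.857 in wet TAM 112 leaves, and -1.46 ± 0.594 in dry and -2.16 ± 0.4 in wet TAM 111 leaves. The GAPDH ratio lay higher on the dry than on the wet arrays without overlap in both cultivars at grain filling, and its part in the sucrose synthase changes was not tested. Between cultivars, the 3' over middle ratio of ubiquitin was -0.39 ± 0.119 in TAM 112 and -0.20 ± 0.112 in TAM 111 (SD, n = 12 each). The other control genes went the other way. That ratio was 0.81 ± 0.167 in TAM 112 and 0.63 ± 0.177 in TAM 111 for glucose-6-phosphate dehydrogenase. It was -0.52 ± 0.570 and -0.85 ± 0.480 for actin, -1.63 ± 1.02 and -1.99 ± 1.07 for EF1a, and 0.86 ± 1.27 and 0.80 ± 0.859 for GAPDH.

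**Figure D3:**
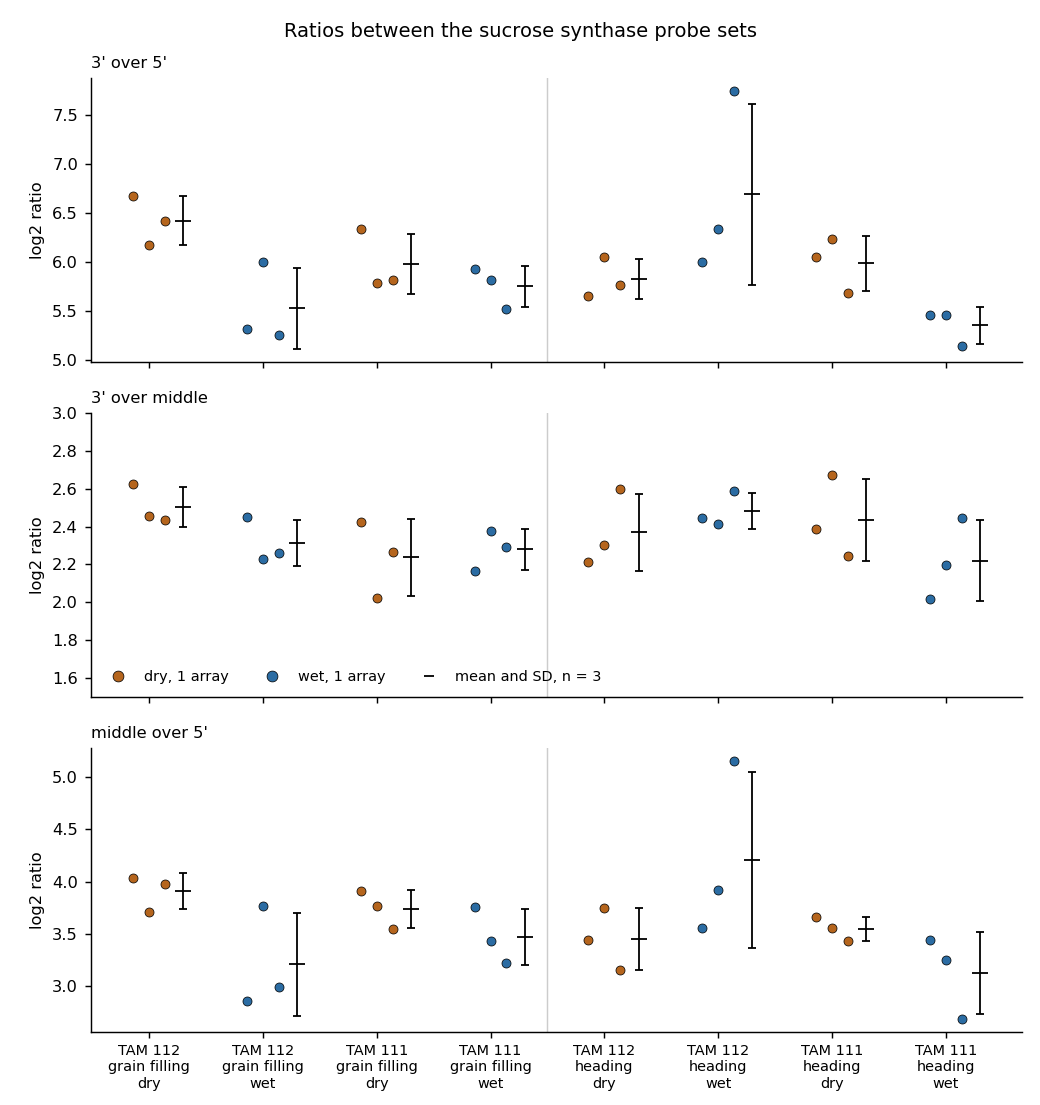
Log2 ratios of the sucrose synthase probe sets (3' over 5', 3' over middle, middle over 5') on each array, by group, with mean ± SD of 3 arrays. The 3' over middle ratio stays between 2.02 and 2.68, and the ratios to the 5' probe set spread most in heading wet TAM 112 leaves.

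Over the 24 arrays the log2 signals of the 3' and middle probe sets correlated with Pearson's r = 0.903 and Spearman's rho = 0.857, as a description of arrays that share scaling and groups. The 6 dry grain filling arrays had the highest 3' signals. Over the other 18 arrays r was 0.738, and over deviations from the group means it was 0.732, so arrays with a higher 3' signal tended to have a higher middle signal inside the groups as well. The 5' probe set followed the others less, with r = 0.265 with the 3' and 0.428 with the middle probe set over 24 arrays. Within groups these were -0.0473 and 0.152.

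**Figure D4:**
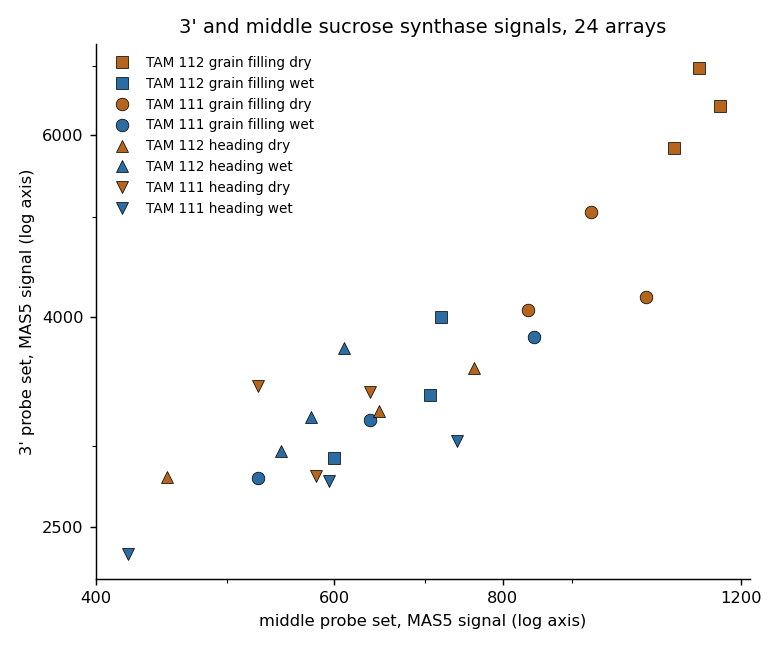
Signal of the 3' probe set against that of the middle probe set on 24 arrays (both axes logarithmic), by group. Arrays of dry grain filling leaves lie at the upper right, and the other 18 arrays form one cloud in which the signals still rise together (r = 0.738).

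Among 78 tested genes with a name, those most like the 3' probe set over the 24 arrays were Glc1 (Pearson's r = 0.864, Spearman's rho = 0.590), 1-FEH (0.863 and 0.597), PIMT (0.829 and 0.642), LEA1 (0.812 and 0.530) and 6-FEH (0.705 and 0.630). The enzymes 1-FEH and 6-FEH are fructan exohydrolases, which free fructose from stored fructan, PIMT is an enzyme of protein repair, and LEA1 is a late embryogenesis abundant protein. Those most like the middle probe set were PIMT (0.808 and 0.643), 1-FEH (0.807 and 0.586), Glc1 (0.792 and 0.558), LEA1 (0.774 and 0.537) and AGP-S (0.702 and 0.711), the small subunit of ADP-glucose pyrophosphorylase. Both lists share 4 genes. The likeness to the 3' probe set rests on the 6 dry grain filling arrays, since over the other 18 arrays r lay between 0.0570 for LEA1 and 0.256 for 6-FEH. With the middle probe set r over those 18 arrays lay between 0.0382 for LEA1 and 0.347 for AGP-S. For the dim 5' probe set the highest r was 0.475, with Glc1, and it was 0.477 over those 18 arrays.

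Of the genes that handle sugar and storage carbohydrate on the list used, 6 were named on the array, 1-FEH, 6-FEH, AGP-S, AGA.1, GBSS and BMY1, and 5 were tested. All 6 are genes of fructan or starch metabolism. GBSS, the granule-bound starch synthase that makes amylose, was too dim to test, with group means of 4.67 to 22.8. Under dry conditions averaged over the other factors, 4 of the 5 rose and 0 fell, beside 15.2% of all tested probe sets that rose, with a median log2 change of 0.51, against -0.03 over all tested probe sets and 0.39 and 0.32 for the 3' and middle sucrose synthase probe sets. Of these 4 calls, that of AGP-S (0.13) was lost in 5 alternative settings and 12 of 24 fits without 1 array, and that of BMY1 (0.80) without the 3 intermediate arrays (0.78, adjusted p = 0.0584) or the 4 numbered 2 (0.84, adjusted p = 0.0541). At grain filling 4 rose in TAM 112 and 2 in TAM 111, and at heading 1 rose in each cultivar, where the shares over all tested probe sets were 13.5% in TAM 112 and 9.32% in TAM 111 at grain filling and 1.66% in TAM 112 and 1.72% in TAM 111 at heading.

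The 2 fructan exohydrolases showed 2 patterns beside sucrose synthase. 1-FEH averaged 17740 ± 3556 in dry and 8829 ± 1263 in wet TAM 112 leaves at grain filling (SD, n = 3 each; limma log2 change 0.99, adjusted p = 4.14e-06), and 15404 ± 1429 in dry and 7722 ± 654 in wet TAM 111 leaves (0.99, adjusted p = 8.52e-06). At heading 1-FEH averaged 8036 ± 685 in dry and 7440 ± 531 in wet TAM 112 leaves (0.11, adjusted p = 0.758) and 8173 ± 959 in dry and 8401 ± 255 in wet TAM 111 leaves (-0.05, limma adjusted p = 0.912). Its water effect was larger at grain filling than at heading by 0.96 (SE 0.129, limma adjusted p = 2.91e-05). 6-FEH rose under dry conditions in all 4 settings, with log2 changes of 1.47 in TAM 112 and 1.30 in TAM 111 at grain filling and 1.10 in TAM 112 and 1.41 in TAM 111 at heading (limma adjusted p of 0.000150 to 0.0191). Its water effect did not pass the test of a difference between stages (0.13, adjusted p = 0.789).

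Of the starch genes, AGP-S rose in TAM 112 at grain filling by 0.26 (limma adjusted p = 0.0421), to 8808 ± 608 in dry against 7387 ± 1031 in wet leaves (SD, n = 3 each). Its lowest dry array (8222) lay below its highest wet array (8294), so the groups overlapped. In TAM 111 at grain filling the AGP-S change was 0.18 (limma adjusted p = 0.212). BMY1, a beta-amylase, rose in TAM 112 at grain filling by 1.86 (limma adjusted p = 0.00817), to 68.4 ± 28.1 in dry against 11.6 ± 13.1 in wet leaves, both near background. AGA.1, a large subunit gene of the same enzyme as AGP-S, did not pass under dry conditions in any of the 4 settings (log2 changes of -0.05 to 0.12). At grain filling against heading, averaged over the other factors, 3 of the 5 rose and 0 fell, beside 16.5% of all tested probe sets that rose. They were 1-FEH (0.54), 6-FEH (0.45) and AGA.1 (0.16), and 6-FEH lost its call without the 4 TAM 111 arrays numbered 2 (0.43, adjusted p = 0.0509). None of the 5 passed between the cultivars under any of the 4 conditions or averaged.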

How the data were processed

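Flag leaf RNA, extracted with Trizol and carried through biotin labelling as stated per the labels' protocols, was hybridised to 24 Affymetrix wheat arrays. The deposited values are intensity values, 1 linear signal per probe set and array from MAS5, per the submitters' processing notes, in which no version is named. The nearly equal trimmed means show that the authors scaled the arrays to one target. All 24 columns were mapped by their labels, and 0 arrays were duplicates. Scanner files were not used here.

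The other 108 AFFX control probe sets were kept out. Of the remaining 61182, 37518 (61.3%) exceeded 69.0, the median over all values, on at least 3 arrays and were tested. A constant of 11.71 (the 20th percentile) was added before log2. The model in limma 3.58.1 (R 4.3.3) had a mean for each of the 8 groups and eBayes with trend, with 16 residual degrees of freedom and 5.53 prior ones. Adjusted p is Benjamini-Hochberg over all tested probe sets, with calls below 0.05. Fold changes are on the log2(signal + 11.71) scale, which understates changes of dim probe sets. Log2 ratios between probe sets were tested by permuting labels within the 4 strata of the other factors (160000 assignments, adjusted over 9 tests). The code of the fit was checked on simulated arrays with independent errors and few changed probe sets, a simpler setting than the data. The number of arrays limits the precision.

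Named genes were the 3 probe sets, the genes of sugar, fructan and starch metabolism by symbol (brightest probe set per gene), and the 5 named genes with the highest Pearson's r with each probe set. Names came from the platform's annotation table and the IWGSC CS RefSeq v2.1 gene table, which named 102 genes. The members, lists and some alternatives were chosen with earlier results of these data known. Alternatives were other pseudocounts, quantile normalization, no or a stricter filter (385.7, the 75th percentile, 18123 probe sets), fits restricted to the compared arrays, weighted arrays, a replicate block, eBayes without trend, all controls kept in, and arrays left out.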

Additional observations from a re-analysis of the deposited data

Results flagged for a closer look

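The water effect, the log2 change of dry against wet leaves, differed between grain filling and heading in the results below by a test of the difference itself. For the 3' sucrose synthase probe set it was larger at grain filling by 0.95 in TAM 112 (limma adjusted p = 0.00308), where it was 0.91 at grain filling and -0.04 at heading. Averaged over both cultivars the difference was 0.58 for the 3' probe set (limma adjusted p = 0.00589) and 0.56 for the middle probe set (adjusted p = 0.0442), whose call was lost in 5 alternative settings and in 16 of 24 fits without 1 array. For the fructan exohydrolase 1-FEH the averaged difference was 0.96 (limma adjusted p = 2.91e-05). It also passed within each cultivar, at 1.04 in TAM 111 (limma adjusted p = 0.00363) and 0.88 in TAM 112 (adjusted p = 0.00261). Of all tested probe sets, 8.84% were called higher in the averaged test, 6.16% in TAM 112 and 1.76% in TAM 111.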

How the results depend on the processing

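The 3 arrays of a group and the low signal of the 5' probe set, near or below the median of all values, limit what can be said of it. Values are log2 changes. Over the combinations of a main result and an alternative, 221 kept direction and side of the threshold, 16 lost the call, 1 gained it and 4 changed sign, and the cause of these was not tested.

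The 3' change in TAM 111 at grain filling lost its call without the variance trend (0.44, adjusted p = 0.0584), with only the arrays compared (0.44, adjusted p = 0.0531), without the 3 intermediate TAM 111 arrays (0.34) and without the 4 numbered 2 (0.38). Leaving out single arrays gave 0.34 to 0.56. The averaged 3' difference between cultivars lost its call with array weights (0.19, adjusted p = 0.0565), no filter (0.22, adjusted p = 0.0651), no trend (0.22, adjusted p = 0.0811), quantile normalization (0.21, adjusted p = 0.0575), without the 3 arrays (0.21) and without the 4 (0.20, adjusted p = 0.133). Single arrays gave 0.19 to 0.25. The averaged middle difference of the water effect between stages lost its call with no filter (0.56, adjusted p = 0.0635), no trend (0.56, adjusted p = 0.0637), quantile normalization (0.54, adjusted p = 0.0525), without the 3 (0.43) and without the 4 (0.39), and single arrays gave 0.45 to 0.66. The averaged middle water effect lost its call without the 4 (0.29, adjusted p = 0.0524), with 0.27 to 0.38 for single arrays.

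The middle change in TAM 111 at grain filling passed with the replicate block (0.49, adjusted p = 0.0415), and leaving out single arrays gave 0.33 to 0.66. Arrays with the same number in different groups correlated at -0.0948 to 0.215 over 84 pairs (median 0.0164, deviations from group means), 7 of them over 0.1, against -0.175 to 0.112 over 168 pairs with different numbers, 2 over 0.1. Most pairs lay under 0.1 and the labels give the numbers no meaning, so the arrays were not treated as paired. The block moved counts of calls by 1.02 to 1.37 times, except for differences of the water effect between cultivars (88 against 13 at grain filling, 42 against 23 averaged, 0 against 1 at heading).

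Signs turned only for values that were not called. Ratio differences between stages turned with a 4 times larger pseudocount (3' over 5' 0.15, middle over 5' 0.18) and without the 4 arrays (0.0144 and 0.0156), and single arrays gave -0.132 to 0.086 and -0.0839 to 0.116. Cultivar differences in grain filling wet leaves turned with array weights (3' -0.0147, middle -0.0302) and without the 3 or the 4 arrays (3' -0.0366, middle -0.12). In heading dry leaves they turned without the 3 or 4 arrays (3' 0.0498, middle -0.00609) and with array weights (middle -0.00793), and in heading wet leaves with array weights (middle -0.0218). The middle water effect between cultivars at heading turned without the 3 or 4 arrays (-0.0522), the 3' stage change in wet TAM 112 leaves with array weights (-0.00323), the 5' difference of the water effect between stages with array weights (0.0286) and quantile normalization (0.0532), that of AGA.1 with quantile normalization (0.0243) and the BMY1 stage change with a pseudocount of 1 (-0.00241). The 5' stage change passed with array weights (0.49, adjusted p = 0.0488), no trend (0.49, adjusted p = 0.0237) and a 4 times larger pseudocount (0.29, adjusted p = 0.0431).

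Leaving out single arrays turned the sign of further values that were not called. These were the water effect at heading of the 3' probe set in TAM 112 (-0.124 to 0.0503) and of the middle one in TAM 111 (-0.189 to 0.206) and TAM 112 (-0.0926 to 0.277), and that of the 5' probe set in TAM 112 at grain filling (-0.231 to 0.235). Cultivar differences did so in grain filling wet leaves (3' -0.0473 to 0.19, middle -0.121 to 0.212), heading dry leaves (3' -0.095 to 0.0914, middle -0.0992 to 0.271) and heading wet leaves (middle -0.196 to 0.2). Stage changes did so in wet leaves of TAM 112 (3' -0.0685 to 0.157) and TAM 111 (middle -0.0134 to 0.382) and for BMY1 (-0.135 to 0.194). Differences of the water effect did so between stages for the 5' probe set (-0.261 to 0.119), 6-FEH (-0.00535 to 0.312), AGA.1 (-0.0633 to 0.0385) and BMY1 (-0.165 to 0.492), and between cultivars at heading for the middle probe set (-0.138 to 0.258). The averaged AGP-S water effect lost its call in 5 settings (0.10 to 0.13) and 12 of 24 single array fits, BMY1's in 2 (0.78 and 0.84), and the averaged 6-FEH stage change in 1 (0.43).

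Counts of calls moved by over 1.5 times in 34 combinations of a comparison with a setting and in 60 of a comparison with a left out array. The ranges over these were, for dry against wet, 7797 (main 11871, TAM 112 grain filling), 3866 (7097, TAM 111 grain filling), 479 to 735 (1351, TAM 112 heading) and 758 to 2595 (1705, TAM 111 heading). For the stages they were 622 to 867 (1623, TAM 112 wet), 2757 to 4189 (6637, TAM 111 dry) and 167 to 643 (1028, TAM 111 wet), and for the cultivars 1821 to 7892 (4709, grain filling dry), 380 to 1510 (995, grain filling wet), 367 to 1391 (800, heading dry) and 430 to 557 (846, heading wet). For differences of the water effect they were 3521 (5429) in TAM 112 and 52 to 2517 (1152) in TAM 111 between stages, and 2 to 2438 (13) at grain filling, 2 (1) at heading and 3 to 907 (23) averaged between cultivars. The 2438 and 907 came without TAM 112 grain filling dry replicate 3.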
